A study of Mus musculus with 6 samples.

Results

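The data set 1 library of cKO cells against 1 library of parental cells, both taken at day 3 of a differentiation of mouse embryonic stem cells (ESC) towards mesoderm. The cKO genotype, labelled Oct1_cKO, is a conditional knockout of Oct1, and the parental genotype is the line without the knockout. Cells were barcodes with 1000 or more detected genes and no more than 10% mitochondrial UMIs (unique molecular identifiers, 1 for each captured transcript). This left 1014 of 1264 barcodes in the cKO library and 943 of 1295 in the parental library, after 12 and 5 barcodes called as doublets were removed, and these 1957 cells are part of 7066 in all 6 libraries of the series. The other 4 libraries are cKO and parental cells of the ESC stage and of day 6. Per the study's design text, cells grew for 2 days in N2B27 medium with Bmp4 and were then moved to a DMEM-based medium with Rspo3, which strengthens Wnt signals, and LDN-193189, a blocker of BMP receptors, for 4 days. On that schedule day 3 falls on the first day after the change of medium. The allele and the means of deletion are not given in the sources used here, and each genotype is represented by 1 library, so every difference below is a difference between 2 libraries and has no replicate check.

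Oct1, the product of Pou2f1, is a POU-domain transcription factor made in most cell types. It binds the octamer, a short DNA element that is also read by its relative Oct4 (Pou5f1), the pluripotency factor. By the series title, the study asks how Oct1 works with Smad factors, which carry BMP and Nodal signals into the nucleus, in the choice of mesodermal fates. In the embryo, pluripotent epiblast cells enter the primitive streak under Wnt, Nodal, BMP and FGF signals and switch on T (Brachyury) and Eomes. Cdx and Hox genes then give posterior identity to the cells that leave it.

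Both libraries held cells that nearly all carried Pou5f1, a part of them with T, and few signs of other types. The cKO cells had a median of 78837 UMIs and 7039 genes, and the parental cells 82497 UMIs and 7210 genes, and 0 cell barcodes were shared between them. The shallow end differed, with a 10th percentile of 44161 UMIs per cell in cKO and 9480 in parental cells. Pou5f1 stood at 490.2 CPM (UMIs per 1e6 UMIs of the library) in cKO and 512 CPM in parental cells, and 99.6% of the T-bearing cells of either library also carried it. Genes of later mesoderm were at or near 0 in both libraries: Mesp1 had 0.205 CPM in cKO and 0.272 CPM in parental cells, Tbx6 had 0.205 and 0.181 CPM, and Msgn1 had no UMI. Of 10 markers of extraembryonic endoderm, 0 reached 5 CPM, and the list summed to 5.35 CPM in cKO and 5.68 CPM in parental cells. Of 11 markers of blood and endothelium 1 did, Etv2 (6.08 and 6.88 CPM), with sums of 11.5 and 15.9 CPM, and no UMI of Hbb-bh1. Of 9 trophoblast markers 3 did, Cdx2, Eomes and Ascl2 (5.22 and 3.56 CPM), with no UMI of Tpbpa or Prl3d1; the first and the second of the 3 also belong to the streak. Of 10 fibroblast markers 2 did, Mgp (103 and 80.1 CPM) and Tagln (119 and 91.1 CPM), while Postn had 0.012 and 0.0389 CPM. Mgp was held almost wholly by a few cells: the 10 cells with the most UMIs carried 99.5% of it in the cKO and 99.4% in the parental library.

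The parental library was not uniform in the share of UMIs that came from each chromosome, and this bears on most of the results. Each cell was scored by the mean log2 share of chromosomes 1, 6 and 8 minus that of chromosome 11, relative to the median cKO cell. Of the cKO cells, 955 of 1014 (94.2%, exact binomial 95% interval 92.6 to 95.5) lay within 0.25 of 0, 18 lay above and 41 below. Of the parental cells only 126 of 943 (13.4%; 11.3 to 15.7) lay within that limit. In 499 of them (52.9%; 49.7 to 56.1) chromosomes 1, 6 and 8 were high, and in 318 (33.7%; 30.7 to 36.8) chromosome 11 was high. The parental scores formed separate peaks on each side of 0, with 45 of the 943 cells within 0.05 of a limit, against 22 of the 1014 cKO cells. The ranges of the score are ranges of a measured value, not cell types. The other stages had a like split: in parental ESC 28.2% of cells had chromosomes 1, 6 and 8 high and 42.8% chromosome 11 high, and at day 6 the shares were 30.5% and 52.01%, while 93.4% of cKO ESC and 87.7% of cKO cells at day 6 lay within the limit.

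**Figure D1:**
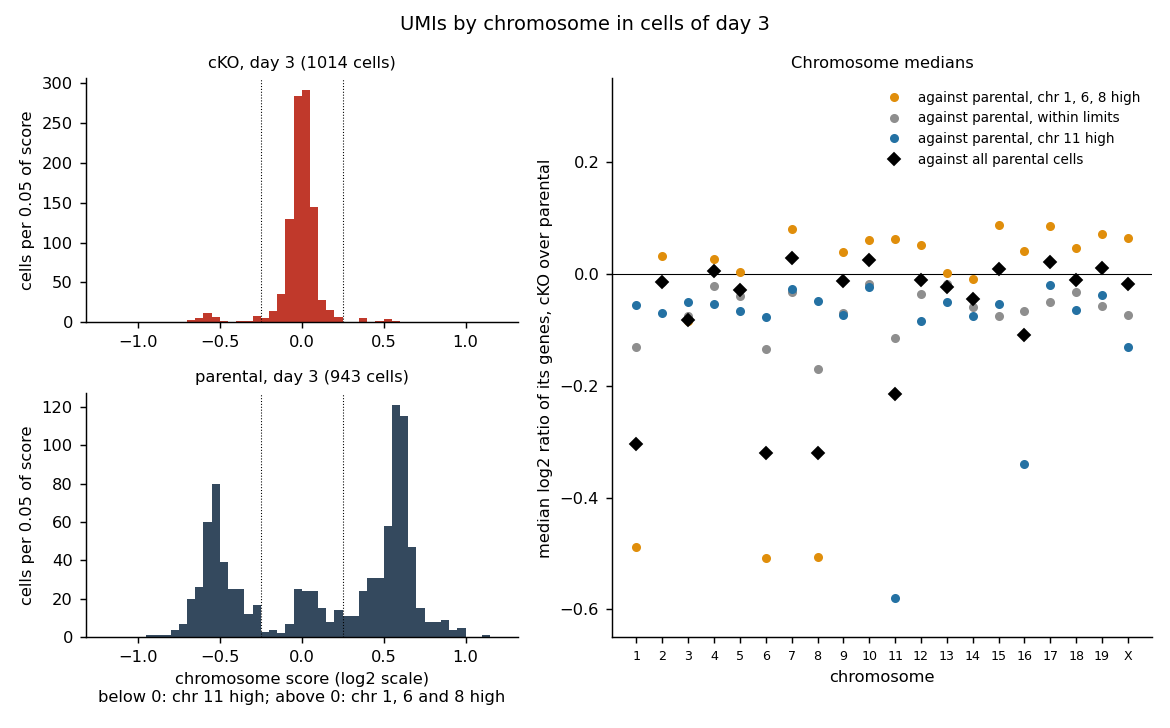
The left panels count cells by chromosome score, a log2 difference, in the cKO (upper) and parental (lower) library, with dotted lines at 0.25 on each side of 0; the right panel gives, for the genes of each chromosome, the median log2 ratio, cKO over parental, against all parental cells (black) and against each range of parental cells. The 1014 cKO cells pile up at 0, the 943 parental cells do not, and the black medians of chromosomes 1, 6 and 8 lie near −0.3.

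In the range with chromosomes 1, 6 and 8 high, those chromosomes took shares of UMIs higher than in cKO cells by 0.48, 0.48 and 0.44 on the log2 scale. In the range with chromosome 11 high, its share was higher by 0.43, and that of chromosome 16, which the score does not use, by 0.22. Against all parental cells, the median log2 ratio was −0.30 for the 494 measured genes of chromosome 1, −0.32 for the 414 of chromosome 6, −0.32 for the 518 of chromosome 8 and −0.21 for the 735 of chromosome 11. Chromosome 16 stood at −0.11, and the other autosomes and the X lay between −0.08 and 0.03. Over all 8916 genes that reached 5 CPM in either library the median was −0.06. Each result below is therefore given against all parental cells and, where it matters, against both ranges.

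The gene of Oct1 itself was lower in cKO against every range. Pou2f1 (ENSMUSG00000026565, mm10 chromosome 1, 165865154 to 166002678, minus strand) had 12.6 CPM in cKO cells and 28.4 CPM in parental cells, a log2 ratio of −1.17 (exact 95% interval for counting error −1.28 to −1.06). Within the parental library it had 32.6 CPM in cells with chromosomes 1, 6 and 8 high, 26.02 CPM in cells within the limit and 23.3 CPM in cells with chromosome 11 high, so the ratio was −1.37, −1.05 and −0.88. Pou2f1 lies on chromosome 1, and the ratio relative to the median gene of that chromosome was −0.86. After each cell was thinned to 20000 UMIs, 21.4% of 967 cKO cells (18.9 to 24.1) and 40.6% of 810 parental cells (37.2 to 44.1) carried a UMI of it. A 5′ tag is counted whether or not a downstream exon was deleted, and the deleted part is not given in the sources used here, so these levels do not measure the extent of the deletion.

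Its paralog Pou2f3, a POU factor best known from tuft cells, differed in the other direction. Pou2f3 (ENSMUSG00000032015, chromosome 9, 43123939 to 43210369, minus strand) had 14.2 CPM in cKO and 1.62 CPM in parental cells, a log2 ratio of 3.13 (2.87 to 3.41). A UMI was seen in 21.5% of thinned cKO cells (18.96 to 24.2) and in 1.60% of parental cells (0.857 to 2.73). All 3 parental ranges were low, at 1.14, 3.17 and 1.64 CPM, and the ratios against them were 3.65, 2.17 and 3.11. Pou2f2, the paralog of B cells, stayed under the 5 CPM used for list members, at 2.52 and 3.84 CPM. The B-cell coactivator Pou2af1 had no UMI in either library.

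Few genes separated the 2 libraries at this stage. Of 5152 genes that reached 20 CPM in either library, 97.2% differed by less than 1.5-fold. At least 2-fold higher in cKO were 12 genes (0.233%) and at least 2-fold lower 14 (0.272%). At the limit of 1.5-fold the counts were 64 (1.24%) and 82 (1.59%). Chromosomes 1, 6 and 8 held 51 of the 82 lower genes, or 62.2%, and 3 of the 64 higher ones, while they held 16.7% of all genes compared.

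**Figure D2:**
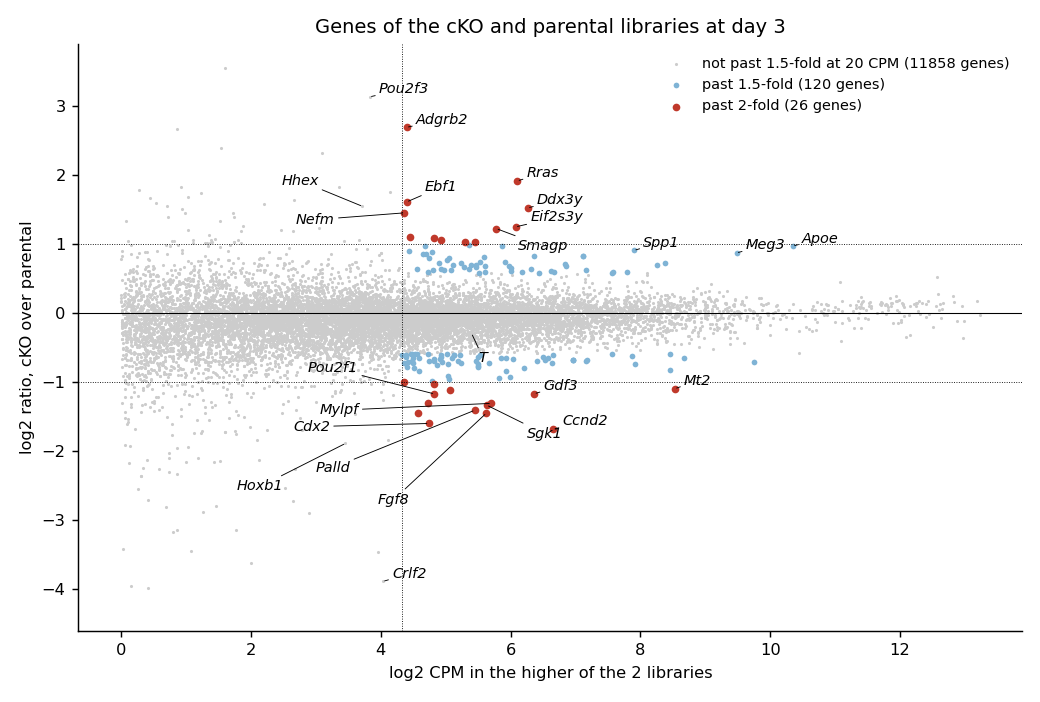
Each point is a gene of the day 3 libraries, with the log2 CPM in the higher library on the x axis and the log2 ratio of cKO over parental on the y axis; dotted lines mark 2-fold and 20 CPM. The 26 genes past 2-fold (red) include Adgrb2 at 2.69 and Ccnd2 at −1.68, and T lies close to 0.

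The ranges of the parental library differed from each other in more genes than the 2 libraries did. Parental cells with chromosomes 1, 6 and 8 high had 59 genes at least 2-fold higher (1.09% of 5390) and 130 genes at least 2-fold lower (2.41%) than parental cells with chromosome 11 high. Part of that is fixed by the score. Of these genes, 24 of the higher and 76 of the lower lay outside chromosomes 1, 6, 8, 11 and Y, among 3976 such genes. That set keeps chromosome 16, whose share was also higher in the range with chromosome 11 high. The cKO cells had 61 genes 2-fold higher (1.18% of 5189) and 45 lower (0.867%) than the range with chromosomes 1, 6 and 8 high. Against the range with chromosome 11 high they had 15 genes higher (0.286% of 5240) and 34 lower (0.649%). At 1.5-fold, 3.64% of genes were higher and 7.75% lower against the first range, and 1.09% higher and 6.2% lower against the second.

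The genes that differed from both ranges form a short list. Of the 12 genes 2-fold higher in cKO, 11 were past 2-fold against the range with chromosomes 1, 6 and 8 high, 4 against the range with chromosome 11 high, and 3 against both: Adgrb2, Rras and Uty. Of the 14 lower genes, 11, 4 and 1 did so, and the 1 was Fgf8. At 1.5-fold, 21 of 64 higher and 19 of 82 lower genes were past the limit against both ranges. These genes were picked out after their values were seen. Of the 14 genes 2-fold lower, 5 had a ratio of the opposite sign against 1 of the ranges. Lpl, the lipoprotein lipase (8.78 and 23.9 CPM), and Palld, an actin-binding protein (16.4 and 43.6 CPM), both on chromosome 8, were lower against every range, with −0.70 the ratio nearest to 0 for either. The gene listed as CAAA01118383.1 had 10.7 and 26.5 CPM.

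**Figure D3:**
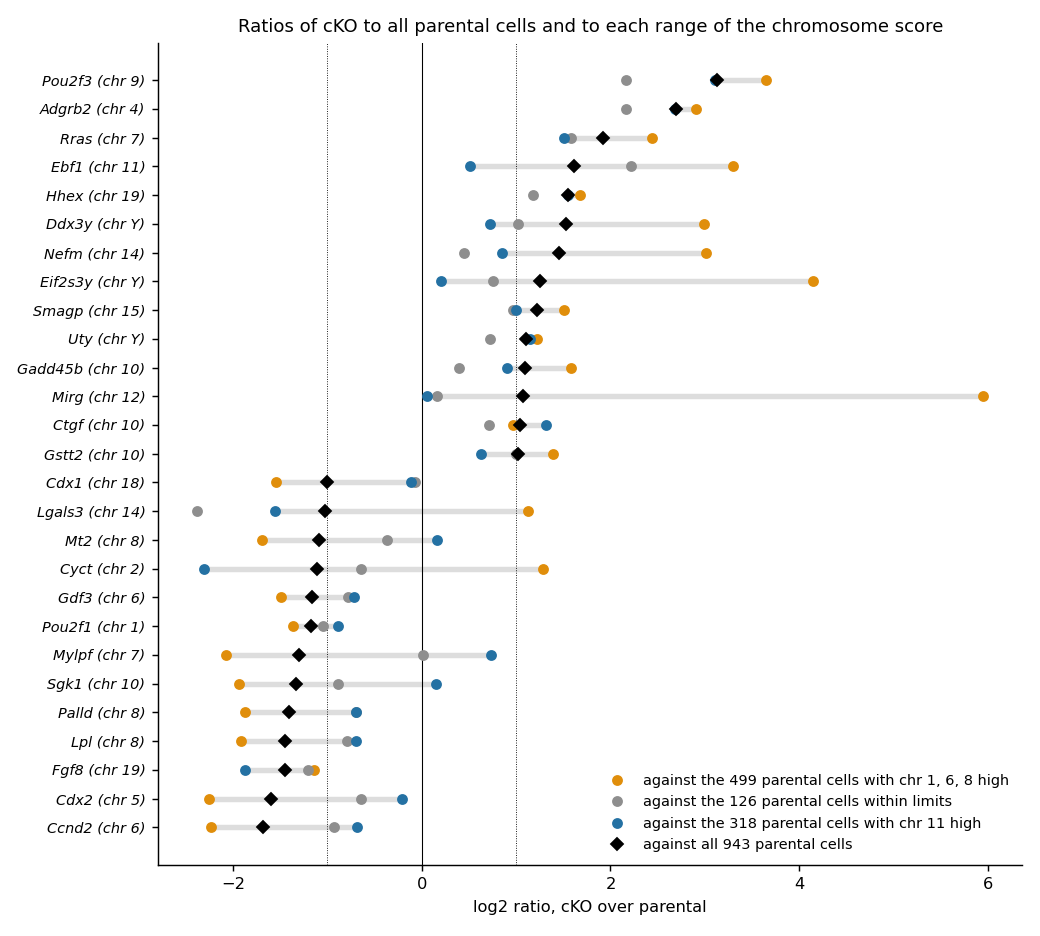
Log2 ratios of cKO over parental for the genes past 2-fold and for Pou2f3 and Hhex, against all 943 parental cells (diamonds), the 499 with chromosomes 1, 6 and 8 high, the 126 within the limits and the 318 with chromosome 11 high. Adgrb2, Rras, Hhex and Fgf8 keep to 1 side of 0 by at least 2.17, 1.51, 1.18 and 1.14 in size, while Cyct, Lgals3, Mylpf and Mt2 cross 0.

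Adgrb2, an adhesion G protein-coupled receptor of the brain, had the highest ratio among genes past 20 CPM. Adgrb2 (ENSMUSG00000028782, chromosome 4, 129984870 to 130022633, plus strand) had 21.1 CPM in cKO cells, against 2.81, 4.71 and 3.29 CPM in the 3 ranges of parental cells in the order given above, and 3.27 CPM in all parental cells (log2 ratio 2.69; 2.50 to 2.89). Thinned cells with a UMI made up 29.6% of cKO (26.7 to 32.6) and 5.56% of parental cells (4.08 to 7.36). In ESC, where the gene was near 0 in both genotypes (0.595 CPM in cKO and 0.375 CPM in parental), the share was 0.439% and 0.923%. The parental ranges did not differ from each other beyond their intervals in that share.

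Rras, a small GTPase that acts on integrin adhesion, was seen in most cKO cells. Rras (ENSMUSG00000038387, chromosome 7, 45017961 to 45021647, plus strand) had 68.9 CPM in cKO and 18.2 CPM in parental cells (1.92; 1.83 to 2.00). A UMI was found in 73.0% of thinned cKO cells (70.1 to 75.8), against 22.7% (18.9 to 26.9), 37.3% (27.9 to 47.4) and 34.1% (28.4 to 40.2) of the parental ranges. The same gene had 51.7 CPM in cKO and 19.7 CPM in parental ESC, and 100.8 and 88.0 CPM at day 6, so the ratio of 0.20 at day 6 was the smallest of the stages.

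Hhex, a homeobox gene of anterior endoderm, was higher in cKO against each range as well, at 13.2 CPM, against 4.11, 5.82 and 4.48 CPM (4.50 CPM in all parental cells; 1.55). It was seen in 20.7% of thinned cKO cells (18.2 to 23.4) and 7.53% of parental cells (5.81 to 9.57). The other member of its list of endoderm and axial mesoderm with at least 5 CPM, Cldn6, a tight junction claudin of early epithelia, had 53.03 CPM in cKO and 38.9 CPM in parental cells (0.45), with 19.96 CPM where chromosomes 1, 6 and 8 were high and 55.7 CPM where chromosome 11 was high. The endoderm and node factors of the list lay under 1 CPM or had no UMI: Foxa2 had 0.482 and 0.946 CPM, Sox17 0.229 and 0.117 CPM, and Cer1, Shh and Noto had no UMI. Apoe, the lipid carrier, had 1306 CPM in cKO and 666 CPM in parental cells (0.97), and between 642 and 718 CPM in every parental range. Its median was 21 UMIs per thinned cKO cell and 8 UMIs per parental cell. Smagp, a small membrane adhesion protein, had 55.02 and 23.5 CPM, and Uap1l1, an enzyme of sugar nucleotides, 58.6 and 29.7 CPM, and both had ratios between 0.84 and 1.51 against the ranges. The lysosomal protease Dpp7 (21.6 and 11.6 CPM) and the detoxifying enzyme Gstt2 (39.2 and 19.3 CPM) were above 0.62 against each range.

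Genes of the Y chromosome differed widely between the parental ranges. Eif2s3y, a Y-linked translation factor, had 67.6 CPM in cKO cells and 28.4 CPM in parental cells, yet 58.9 CPM in the parental cells with chromosome 11 high and 3.82 CPM in those with chromosomes 1, 6 and 8 high. Its log2 ratio was 0.20 against the cells with chromosome 11 high and 4.15 against those with chromosomes 1, 6 and 8 high. Ddx3y, a Y-linked RNA helicase, had 76.9 CPM in cKO, 46.4 CPM with chromosome 11 high and 9.66 CPM with chromosomes 1, 6 and 8 high. Uty, the Y-linked histone demethylase, did not follow them, with 21.7 CPM in cKO and 9.83 and 9.32 CPM in those ranges. Thinned cells without a UMI of the 4 Y-linked genes made up 10.96% of cKO cells (9.06 to 13.1), 72.1% of parental cells with chromosomes 1, 6 and 8 high (67.6 to 76.2) and 20.5% of those with chromosome 11 high (15.8 to 25.8).

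The maternally expressed RNAs of the Dlk1 and Meg3 imprinted locus on chromosome 12 split the parental cells in the same manner. Meg3 had 715 CPM in cKO cells and 390.3 CPM in parental cells. In the parental range with chromosome 11 high it had 818 CPM, above the cKO level (ratio −0.19), and in the range with chromosomes 1, 6 and 8 high 18.3 CPM (5.29). It was seen in 87.1% of thinned cKO cells, in 87.5% of parental cells with chromosome 11 high and in 7.43% of those with chromosomes 1, 6 and 8 high. Mirg, a microRNA host of the locus, had 30.3 CPM in cKO, 29.1 CPM with chromosome 11 high and 0.491 CPM with chromosomes 1, 6 and 8 high. Dlk1 itself, the paternally expressed gene, lay below 5 CPM in both libraries. Of the 17 measured genes of the imprinted list, 5 were at least 1.5-fold higher in cKO and 2 lower. The higher ones included Peg10 (27.7 and 15.0 CPM), Peg3 (307 and 189.9 CPM) and Impact (139 and 78.6 CPM), and the lower ones were Grb10, an adaptor of growth factor receptors (8.004 and 18.2 CPM), and Phlda2 (58.1 and 90.3 CPM). The background for list members, genes with at least 5 CPM past 1.5-fold, was 1.44% higher and 3.3% lower of 8916. Members and background genes needed 5 CPM in either library, so a gene below it in 1 library could differ in 1 direction only. Members below it in cKO that are called lower include Eomes, Hoxb1, Hoxb2, Hoxa5, Fzd5, Nkd1, Klf4, Nr0b1 and Sox1. Those below it in parental cells that are called higher include Pou2f3, Hhex and Fosb.

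Of 18 factors of the streak and early mesoderm 3 were measured at 5 CPM, of which 1 (Eomes) was at least 1.5-fold lower in cKO and 0 higher. Eomes reached 5 CPM in the parental library alone, so it could only come out lower. T, the Brachyury factor, was close to level over all cells, at 34.4 CPM in cKO and 42.2 CPM in parental cells (−0.29). It differed between the parental ranges, with 26.1 CPM where chromosomes 1, 6 and 8 were high and 60.9 CPM where chromosome 11 was high, so the cKO cells lay above the first (0.40) and below the second (−0.82). The shares of thinned cells with T were 25.3% in cKO (22.6 to 28.2), against 24.5% (20.6 to 28.8) and 33.7% (28.0 to 39.8) in those ranges. Eomes, the T-box factor of the anterior streak, was lower against all ranges, with 4.67 CPM in cKO and 9.38 CPM in parental cells (−1.01) and ratios of −0.92, −0.89 and −1.17. It was found in 6.31% of cKO (4.86 to 8.03) and 12.1% of parental cells (9.93 to 14.5).

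Fgf8, the FGF ligand of the streak, was lower in cKO against every range and most of all where T was highest. Fgf8 (ENSMUSG00000025219, chromosome 19, 45736798 to 45742915, minus strand) had 18.1 CPM in cKO and 49.3 CPM in parental cells (−1.45; −1.54 to −1.36). In the parental ranges it had 39.9, 41.6 and 66.4 CPM, and the ratios were −1.14, −1.203 and −1.88. It was seen in 13.7% of thinned cKO cells (11.5 to 16.0), against 20.05% (16.4 to 24.1), 28.4% (19.9 to 38.2) and 31.1% (25.5 to 37.0) of the ranges. Among cells with a UMI of T, Fgf8 was present in 30.2% of 245 cKO cells (24.5 to 36.4) and in 49.6% of 226 parental cells (42.9 to 56.3). The same share was 43.1% in the T-bearing parental cells with chromosomes 1, 6 and 8 high and 56.2% in those with chromosome 11 high. The lower level of Fgf8 was thus also measured in cells that carried T.

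Cdx2, a caudal homeobox factor of the posterior body, behaved otherwise. Cdx2 (ENSMUSG00000029646, chromosome 5, 147300805 to 147307270, minus strand) had 8.81 CPM in cKO and 26.7 CPM in parental cells (−1.60; −1.72 to −1.47). The parental UMIs came mainly from cells with chromosomes 1, 6 and 8 high (41.9 CPM), while the cells with chromosome 11 high had 10.2 CPM, close to cKO (−0.21). The shares of thinned cells were 12.5% in cKO (10.5 to 14.8), against 29.7% (25.5 to 34.2) and 11.4% (7.8 to 15.8) in those ranges. Its relative Cdx1 had 10.3 CPM in cKO, against 30.03 and 11.1 CPM in them. Cdx4, the third member of the family, was higher in cKO, at 9.08 CPM, against 5.25 CPM in parental cells (0.79).

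The 14 genes of the caudal and neuromesodermal list had 11 measured members, of which 5 were at least 1.5-fold lower and 1 higher in cKO. The median log2 ratio was −0.55 against all parental cells, −0.80 against the range with chromosomes 1, 6 and 8 high and −0.38 against the range with chromosome 11 high. Besides Cdx1, Cdx2 and Fgf8 the lower members were Nkx1-2 (36.9 and 57.6 CPM), a homeobox gene of axial progenitors, and the ligand Wnt5b (5.83 and 10.4 CPM). Wnt8a, a Wnt ligand of the early streak, had 27.7 and 26.2 CPM. Thinned cells held a median of 2 UMIs of the list in cKO and 4 in parental cells.

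Hox genes differed in direction between the ranges. All 5 measured members of 28 were at least 1.5-fold lower in cKO, with a median of −1.06. Hoxb1, Hoxb2 and Hoxa5 reached 5 CPM in the parental library alone, so that limit fixed their direction over all cells. Against the range with chromosomes 1, 6 and 8 high the median was −1.94, and against the range with chromosome 11 high it was 1.10, the opposite sign. Hoxb1, an early hindbrain and streak gene, had 2.97 CPM in cKO and 10.96 CPM in parental cells, with 17.9 CPM in the first range and 3.25 CPM in the second. Hoxb2 (4.41 CPM in cKO, 17.1 and 2.06 CPM in the ranges) and Hoxa5 (3.06 CPM, 11.7 and 0.262 CPM) followed the same order. Of the 5 measured genes 3 lie on chromosomes 1, 6 and 8, Hoxa5 among them, and Hoxb1 and Hoxb2 lie on chromosome 11; the part of the chromosome shares in these ratios was not tested. The cKO cells lay between the parental ranges for Hoxa5 and Hoxb2 and just below both for Hoxb1.

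**Figure D4:**
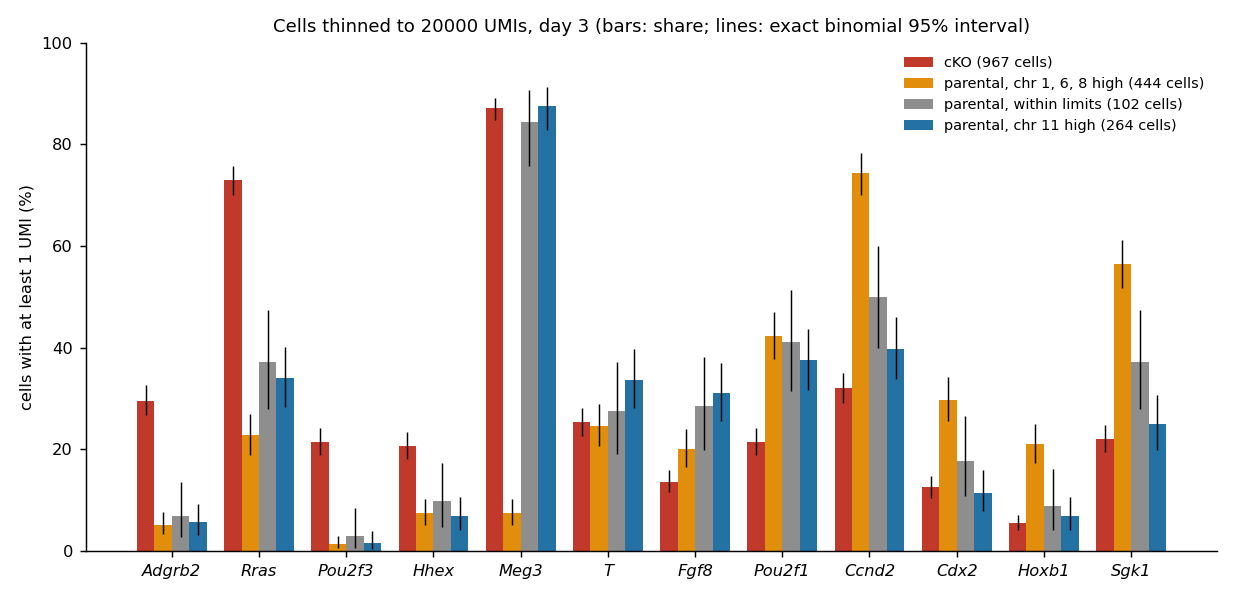
Bars give the percentage of cells with at least 1 UMI of a gene after each cell was thinned to 20000 UMIs, for 967 cKO cells and for the 444, 102 and 264 parental cells of the 3 ranges, and lines give exact binomial 95% intervals. Adgrb2, Rras, Pou2f3 and Hhex are highest in cKO, Fgf8 and Pou2f1 are lowest there, and for Meg3, Cdx2, Hoxb1 and Sgk1 the cKO share lies within the interval of the parental cells with chromosome 11 high, such as 12.5% and 11.4% for Cdx2.

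Ccnd2, the cyclin D2 of the G1 phase and a Wnt target, had the lowest ratio of the genes past 20 CPM. Ccnd2 (ENSMUSG00000000184, chromosome 6, 127125162 to 127152193, minus strand) had 31.6 CPM in cKO and 101 CPM in parental cells (−1.68; −1.74 to −1.61). The parental ranges had 148, 60.2 and 50.7 CPM, and the ratios were −2.23, −0.93 and −0.68. It lay below every range, but past 2-fold against the first alone. It was seen in 32.1% of thinned cKO cells (29.1 to 35.1), against 74.3% (70.0 to 78.3) where chromosomes 1, 6 and 8 were high and 39.8% (33.8 to 46.0) where chromosome 11 was high. The other D cyclins differed little: Ccnd1 had 110.2 CPM in cKO and 132 CPM in parental cells, and Ccnd3 58.9 and 60.8 CPM. Of 22 genes of S phase and mitosis, 0 were past 1.5-fold, with a median of −0.04. Its lowest members were the replication helicase subunits Mcm6 (124 and 175 CPM), Mcm2, Mcm5 and Mcm3, which lie on chromosomes 1, 6, 8 and 1 and had ratios between 0.05 and 0.21 against the range with chromosome 11 high.

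Signalling genes were mostly level or slightly lower. Of 13 measured Wnt ligands, receptors and antagonists, 4 were at least 1.5-fold lower in cKO than in all parental cells and 0 higher (median −0.46). These were Wnt5b, Wnt3 (6.93 and 10.9 CPM), the ligand of the early streak, and the receptors Fzd10 (10.03 and 15.7 CPM) and Fzd5 (3.35 and 5.13 CPM). Wnt3 was lowest against the range with chromosome 11 high (−1.10) and near level against the other (−0.13). Of the 13, 6 lie on chromosomes 1, 6 and 8, among them Fzd5 and Wnt5b, with −0.14 and −0.31 against the range with chromosome 11 high. Against that range 4 members were lower and 2 higher, with a median of −0.41. Against the range with chromosomes 1, 6 and 8 high 4 were lower and 1 higher (−0.40). Of 11 genes of Wnt response, 3 were lower, Ccnd2, Cdx1 and Nkd1, a feedback inhibitor (4.68 and 10.4 CPM; −1.15), and 0 higher. Axin2 (15.1 and 17.8 CPM), Lef1 (59.5 and 65.8 CPM) and Tcf7 (23.6 and 24.7 CPM) stayed within 1.2-fold of each other.

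Of the 8 measured genes of the Nodal pathway, 3 were at least 1.5-fold lower in cKO and 0 higher. Nodal, the TGF-beta family ligand of the streak, had 52.1 CPM in cKO and 41.3 CPM in parental cells (0.34), and its coreceptor Tdgf1 had 175 and 171 CPM. The feedback inhibitors Lefty1 (78.2 and 125 CPM; −0.68) and Lefty2 (7.27 and 14.1 CPM; −0.96) were lower. In the parental range with chromosome 11 high they stood at 211 and 26.8 CPM (ratios −1.43 and −1.88), and in the range with chromosomes 1, 6 and 8 high at 74.3 and 5.89 CPM (0.07 and 0.30), although both genes lie on chromosome 1. Gdf3, a Nodal-like ligand on chromosome 6, had 36.8 and 82.5 CPM (−1.17) and was lower against every range, by −1.49, −0.78 and −0.72. It was present in 38.8% of thinned cKO cells (35.7 to 41.9) and 66.8% of parental cells (63.4 to 70.0).

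BMP and Smad genes were not past 1.5-fold against all parental cells. This held for 6 measured BMP ligands, receptors and antagonists, 6 genes of BMP response and 5 Smad genes, with medians of −0.33, −0.25 and −0.37. Some were past it against a single range. The BMP receptor Bmpr2 had −0.62 against the range with chromosomes 1, 6 and 8 high. Against the range with chromosome 11 high, Twsg1 had −0.78 and the response gene Tbx3 1.48, which had −0.44 against the other. Smad1, a BMP effector on chromosome 8, had 15.3 and 21.8 CPM (−0.51). Its ratio was −0.73 against the range with chromosomes 1, 6 and 8 high and −0.17 against that with chromosome 11 high. Its partner Smad5, on chromosome 13, had 8.04 and 11.4 CPM (−0.50) and ratios of −0.48, −0.44 and −0.56 against the ranges. Smad2, which carries Nodal signals, and the shared Smad4 were level, at 22.2 and 23.2 CPM and at 59.4 and 61.6 CPM. The inhibitory Smad7 had 31.1 and 40.05 CPM. The BMP target Id3 had 84.6 and 83.4 CPM and Id1 7.32 and 8.37 CPM.

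Most FGF pathway genes were within 1.5-fold. Of 8 measured ligands, receptors and binding proteins 1 was lower (Fgf8) and 1 higher, Fgfbp1, a carrier that releases FGF from matrix (48.4 and 27.6 CPM; 0.81), which was higher against each range. Fgfr1, the main receptor, had 47.7 and 61.3 CPM, and Fgf5, an epiblast ligand, 10.9 and 12.6 CPM. Of 15 genes of FGF and ERK response, 1 was at least 1.5-fold lower, Etv4 (34.3 and 61.1 CPM; −0.83), an ETS factor, and 0 higher, with a median of −0.13. Dusp6 had 36.4 and 39.95 CPM, and Spry4 9.86 and 9.93 CPM.

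**Figure D5:**
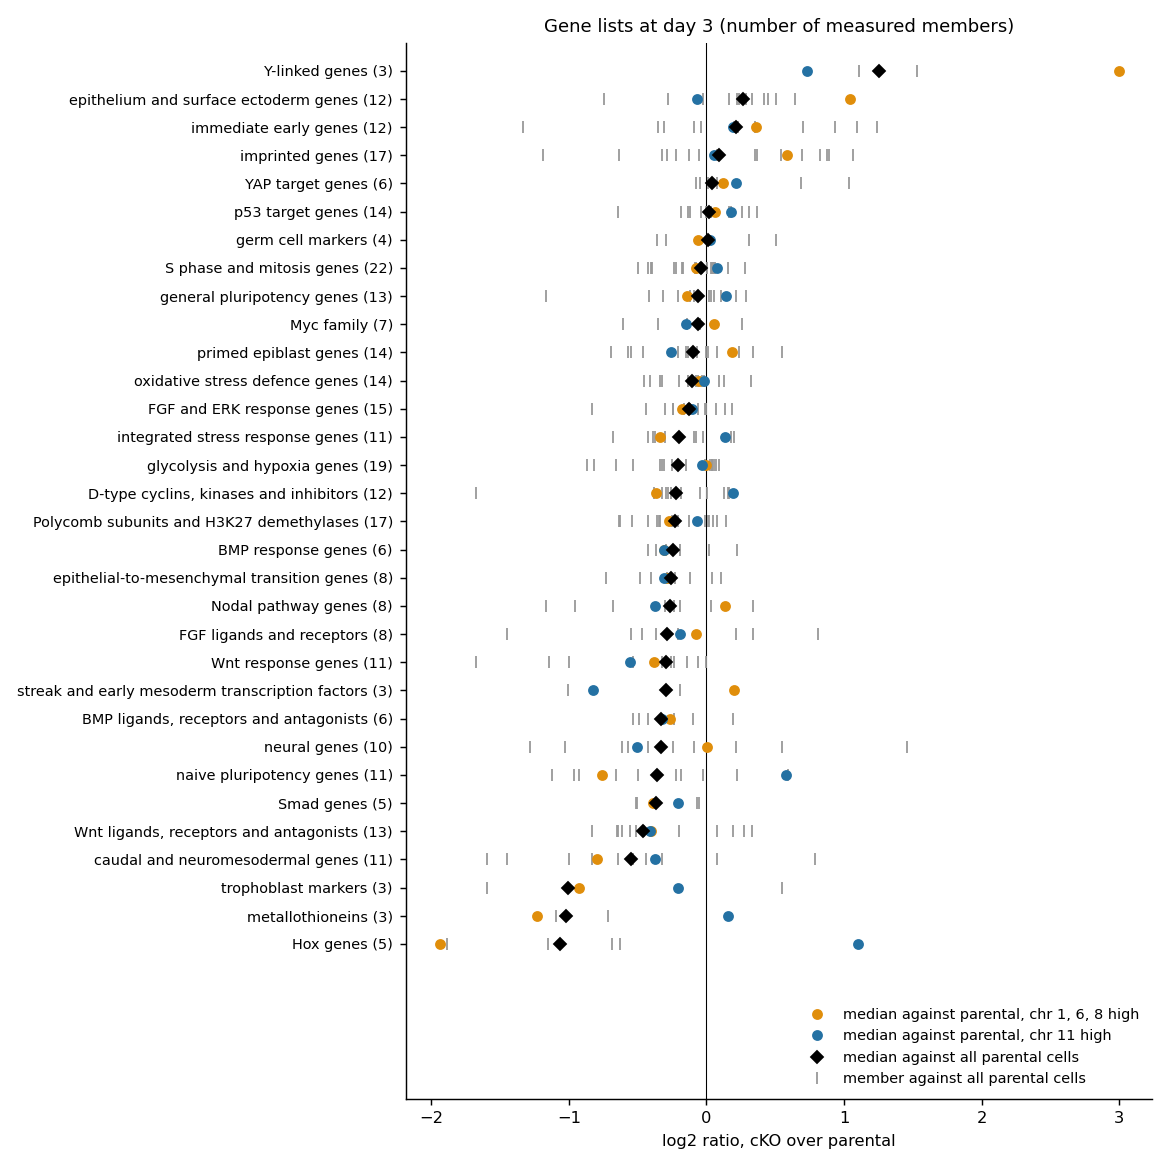
Gene lists with at least 3 measured members, ordered by the median log2 ratio of cKO over all parental cells (diamonds), with single members as ticks and the medians against the 2 main parental ranges as dots. The dots of the Hox list lie at −1.94 and 1.10 and those of the naive list at −0.76 and 0.57, on opposite sides of 0.

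Pluripotency genes were read as general, naive and primed lists. Of 13 general genes 1 was lower (Gdf3) and 0 higher, with a median of −0.06; Sall4 had 121 CPM in cKO and 119 CPM in parental cells. Sox2 was level over all cells (73.0 and 77.9 CPM), with 110 CPM in the range with chromosomes 1, 6 and 8 high and 40.5 CPM in that with chromosome 11 high. Of 11 measured naive genes, 4 were at least 1.5-fold lower and 1 higher (median −0.36). The lower ones were Klf4 (4.47 and 9.76 CPM), Zfp42 (33.5 and 63.7 CPM), Nr0b1 (2.59 and 5.05 CPM) and Nanog (38.5 and 60.6 CPM). Zfp42 lies on chromosome 8 and Nanog on chromosome 6. The higher one was Klf2 (190.5 and 126 CPM), also on chromosome 8. Of the 11 measured, 5 lie on chromosomes 1, 6 and 8. The median of the list was −0.76 against the range with chromosomes 1, 6 and 8 high and 0.57 against the range with chromosome 11 high. In thinned cells the 90th percentile of its summed UMIs was 25 in cKO, 44.7 in the first range and 16 in the second, with medians of 9, 9 and 7. Of 14 primed genes 1 was lower, the DNA methyltransferase Dnmt3a (52.4 and 84.7 CPM; −0.69), and 0 higher. Otx2, an anterior epiblast factor, had 12.8 and 8.77 CPM (0.55).

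Neural genes held members in both directions: of 10 measured, 3 were at least 1.5-fold lower and 1 higher. The lower ones were Sox1 (3.29 and 8.02 CPM), Crabp1 (5.18 and 10.5 CPM) and Tubb3 (30.1 and 46.1 CPM), of which Sox1 and Tubb3 lie on chromosome 8. Tubb3 was not lower against the range with chromosomes 1, 6 and 8 high, and 10 cells held 44.6% of its parental UMIs. The higher one was the neurofilament chain Nefm (20.6 and 7.52 CPM), which had 2.56 CPM in the range with chromosomes 1, 6 and 8 high and 11.4 CPM in that with chromosome 11 high. Epithelial genes were mostly above 0, for 9 of 12 members, with 1 past 1.5-fold on each side and a median of 0.26. Epcam, the epithelial adhesion molecule, had 544 and 408 CPM. Grhl2, a regulator of epithelial junctions, had 11.1 and 7.10 CPM (0.64, and −0.31 against parental cells within the limit). Krt19 had 9.31 and 15.6 CPM (−0.75), with 59.3% of its parental UMIs in 10 cells. The median of the list was 1.04 against the range with chromosomes 1, 6 and 8 high and −0.07 against the range with chromosome 11 high. Of 8 genes of epithelial-to-mesenchymal transition 1 was lower, the cadherin Cdh2 (5.81 and 9.65 CPM), and 0 higher.

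Immediate early genes, which answer to growth factors and handling, were higher for 4 of 12 members and lower for 1. Fosb had 8.25 and 3.50 CPM (1.24), Gadd45b 28.2 and 13.2 CPM (1.09), Fos 12.2 and 6.40 CPM (0.93) and Jun 44.02 and 27.1 CPM (0.70). Gadd45b, Fosb and Fos had ratios above 0 against every range, the smallest of Gadd45b being 0.40. Sgk1, a kinase of stress and hormone signals, was the lower one (19.7 and 49.7 CPM; −1.33), with 75.7 CPM in the range with chromosomes 1, 6 and 8 high and 17.8 CPM in the other. The matricellular genes Ctgf (43.8 and 21.3 CPM; 1.04) and Cyr61 (48.5 and 30.1 CPM; 0.69), targets of YAP, were the higher ones among 6 measured YAP targets, and 0 were lower. Ctgf was above each range, with ratios of 0.97, 0.71 and 1.32, while Cyr61 was above both main ranges and not above the parental cells within the limit (−0.14).

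Metallothioneins, metal-binding proteins clustered on chromosome 8, were all 3 at least 1.5-fold lower over all cells. Mt2 had 174 CPM in cKO, against 562 CPM in the range with chromosomes 1, 6 and 8 high and 156 CPM in that with chromosome 11 high, and Mt1 had 525 CPM, against 1236 and 457 CPM. The ratios of Mt1 and Mt2 thus turned sign between the ranges, while Mt3 (7.08 CPM in cKO, against 16.6 and 11.8 CPM) was lower against each. Mylpf, a skeletal muscle myosin light chain, followed the same order, with 21.02 CPM in cKO, 88.5 and 12.6 CPM. Genes of glycolysis and hypoxia (3 of 19 lower, 0 higher), Polycomb subunits (2 of 17 lower, 0 higher), the integrated stress response (1 of 11 lower, 0 higher) and p53 targets (1 of 14 lower, 0 higher) had medians between −0.23 and 0.02. Of 7 measured Myc family genes 1 was lower, of 14 genes of oxidative stress defence 0, of 12 cyclins, kinases and inhibitors of G1 1 (Ccnd2) and of 4 germ cell markers 0, and none of these lists had a member past 1.5-fold higher. Ezh2, the Polycomb methyltransferase on chromosome 6, had 151 and 234 CPM (−0.63; −0.07 against the range with chromosome 11 high). Cyct, the testis cytochrome c, ran the other way: it had 15.5 CPM in cKO, 6.38 CPM with chromosomes 1, 6 and 8 high and 77.1 CPM with chromosome 11 high.

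For some genes the sums rest in large part on a handful of cells. The 10 cells with the most UMIs held 79.1% of Spp1 (osteopontin) in cKO and 63.2% in parental cells. Its level was 239.6 and 127 CPM, yet 31.7% of thinned cKO cells (28.8 to 34.8) and 34.8% of parental cells (31.5 to 38.2) carried it. For Lgals3, a galectin, the 10 cells held 60.8% and 83.8%, and the thinned shares of 8.79% and 4.94% ran against its levels of 13.9 and 28.2 CPM, so no order is read from it. For Ebf1, a transcription factor of mesenchyme and B cells, they held 12.2% and 60.8%, and 25.1% of thinned cKO cells (22.4 to 28.0) and 6.91% of parental cells (5.26 to 8.88) carried it. The 10 cells also held much of Krt19 (40.8% in cKO and 59.3% in parental), Tubb3 (22.2% and 44.6%) and Mylpf (47.2% and 28.5%). At 5000 UMIs per cell, Krt19 was seen in 3.71% of cKO and 3.83% of parental cells, and Tubb3 in 11.3% and 13.2%. For Rras the 10 cells held 3.87% and 9.17%.

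Genes that changed between parental ESC and day 6 were more often at least 1.5-fold lower in cKO at day 3 than all genes. Their medians stayed close to that of all genes (−0.06). Of 1111 genes at least 2-fold higher in parental day 6 than in parental ESC, 1016 had at least 5 CPM at day 3. Their median ratio of cKO over parental was −0.13, 6.89% were at least 1.5-fold lower and 1.18% higher, beside 3.3% and 1.44% of all genes. Of 483 measured genes that were lower in parental day 6 than in ESC, 8.07% were at least 1.5-fold lower and 3.11% higher, with a median of −0.04. The groups needed 20 CPM in parental ESC or day 6, while all genes needed only 5 CPM at day 3, so the 2 differ in level. Under the limits of the groups, genes that moved in neither direction had 1.02% lower and 0.762% higher. These ratios were taken against all parental cells and not by range.

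Part of the differences were present at the other stages, whose libraries are separate. Their parental libraries had a like split by chromosome score, and the ratios there are given against all parental cells only. Between cKO and parental ESC, 46 of 5338 genes were 2-fold higher (0.862%) and 69 lower (1.29%), and at day 6 313 of 6172 were higher (5.07%) and 254 lower (4.12%). Of the 12 genes 2-fold higher at day 3, 6 were also past 2-fold in ESC and 6 at day 6, which is 13.04% of the 46 and 1.92% of the 313. Of the 14 lower genes, 3 were past 2-fold in ESC and 1 at day 6, or 4.35% of the 69 and 0.394% of the 254. The Y-linked Eif2s3y, Uty and Ddx3y were higher and Ccnd2 lower at all 3 stages. These 4 were past 2-fold with at least 20 CPM at each stage. At day 3 their ratios against the parental range with chromosome 11 high were 0.20, 1.15, 0.73 and −0.68 in that order. Adgrb2 did not reach 20 CPM in ESC or at day 6 (log2 ratios 0.67 and 0.61). In ESC it was near 0 in both genotypes and its share of thinned cells was lower in cKO, so no order is read there. Fgf8 was near 0 in ESC (1.55 CPM in cKO and 0.879 CPM in parental), and no order is read there. At day 6 it had 15.3 and 7.56 CPM, with a ratio of 1.02, opposite in sign to day 3. It did not reach 20 CPM at either of these stages. Crlf2, a cytokine receptor chain chosen after its values were seen, was at 1.11 CPM in cKO cells at day 3, against 9.99, 13.4 and 26.9 CPM in the parental ranges.

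The octamer ATGCAAAT was searched on both strands of the promoters of RefSeq genes, from 250 bases before to 50 bases after the start (GRCm38.p6). It was present in 570 of 32851 windows (1.74%). By symbol, 4107 of the 5152 genes compared had a window, and 57 of them held the octamer (1.39%). Among genes at least 1.5-fold higher in cKO, 47 of 64 had a window and 6 of these held it (12.8%), and among the lower genes 55 of 82 had a window and 5 held it (9.09%). The higher ones were Gadd45g, Irf3, Spp1, Wwc2, Ypel3 and Zfp428, and the lower ones Cdx2, Gadd45a, Stx6, Tmsb4x and Zfp42. At the limit of 2-fold, 0 of 9 higher genes with a window and 1 of 8 lower ones (Cdx2) held it. For Spp1 and Wwc2 the RefSeq start lies inside the gene as GENCODE places it, and most UMIs of Spp1 came from 10 cells. These are counts of letters with no test, and a match is not a site of binding. Of the 11 genes, Wwc2 and Gadd45g were past 1.5-fold against both main parental ranges. The windows of 2 genes in each direction are shown, 5′ to 3′ on the strand of the gene, with the octamer or its reverse complement ATTTGCAT in capitals. They are Cdx2 (chr5:147307200-147307499, minus strand; 8.81 and 26.7 CPM) and Zfp42, also called Rex1 (chr8:43306960-43307259, minus strand; 33.5 and 63.7 CPM), both lower in cKO. The higher ones are Gadd45g, a stress-response gene (chr13:51846425-51846724, plus strand; 41.1 and 20.8 CPM), and Irf3, an interferon regulatory factor (chr7:44997398-44997697, plus strand; 33.7 and 21.9 CPM). Counted from the start site, the first base of the motif is at −147, −186, −103 and −30 in these 4 windows.
Cdx2: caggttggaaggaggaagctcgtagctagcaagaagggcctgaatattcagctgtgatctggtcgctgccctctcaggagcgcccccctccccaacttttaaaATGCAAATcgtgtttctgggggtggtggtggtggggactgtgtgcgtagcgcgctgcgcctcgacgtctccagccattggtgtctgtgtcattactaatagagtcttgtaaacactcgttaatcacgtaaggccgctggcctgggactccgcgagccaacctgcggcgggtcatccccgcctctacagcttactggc
Zfp42: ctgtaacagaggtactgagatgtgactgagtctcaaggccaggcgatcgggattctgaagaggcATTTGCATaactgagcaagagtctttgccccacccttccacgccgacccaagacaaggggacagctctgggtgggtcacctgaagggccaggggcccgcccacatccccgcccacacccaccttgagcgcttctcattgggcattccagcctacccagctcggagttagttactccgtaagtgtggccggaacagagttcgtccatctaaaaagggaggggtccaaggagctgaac
Gadd45g: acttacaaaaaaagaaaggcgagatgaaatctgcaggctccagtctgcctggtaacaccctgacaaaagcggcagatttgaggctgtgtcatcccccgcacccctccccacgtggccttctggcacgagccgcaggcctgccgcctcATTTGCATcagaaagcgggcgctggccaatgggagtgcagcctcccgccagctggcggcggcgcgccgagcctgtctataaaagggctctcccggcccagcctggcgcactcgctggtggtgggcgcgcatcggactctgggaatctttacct
Irf3: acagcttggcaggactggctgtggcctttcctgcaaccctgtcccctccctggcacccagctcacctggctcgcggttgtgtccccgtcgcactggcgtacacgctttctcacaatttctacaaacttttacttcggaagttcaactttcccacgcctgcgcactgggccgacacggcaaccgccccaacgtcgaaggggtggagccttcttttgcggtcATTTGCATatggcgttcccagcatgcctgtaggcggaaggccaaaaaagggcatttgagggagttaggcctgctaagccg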

How the data were processed

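The libraries were made from trypsinised cells by 10x Genomics 5′ single-cell chemistry, per the labels' protocols. Per the submitters' processing notes the authors used Cell Ranger with mm10, and the version was 3.1.0 per the file headers. The deposited values were whole-number UMI counts per gene and barcode for 31053 genes. Gene positions came from GENCODE annotation of the same build.

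Scrublet (scanpy 1.11.5) was run within each library. UMIs were summed over kept cells (82958107 in cKO and 77171262 in parental) and scaled to CPM. Log2 ratios carry exact conditional binomial 95% intervals and shares exact Clopper-Pearson intervals; both cover counting error only. A 0 was set to a floor of 3 counts. Called genes were at least 2-fold or 1.5-fold apart and reached 20 CPM in either library, list members had at least 5 CPM, and no test was run because each group held 1 library. For shares, cells were thinned to 20000 UMIs, which left out 47 cKO and 133 parental cells.

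Named were Pou2f1, up to 20 genes with the highest and 20 with the lowest ratio (1 CPM added for the ranking, UMIs in at least 5% of cells, at least 1.5-fold) and up to 4 members of each of 37 lists; other genes were named as members of a list or after their values were seen, and some members are not reported here. Members, lists and the chromosome score were chosen with earlier results of these data known. Alternatives were TMM factors (edgeR 4.0.16), median-of-ratios size factors, equal weight per cell, other cell and expression filters, and parental cells of 1 chromosome range. The code that makes the calls was checked on simulated counts. Python 3.11.15, numpy 2.4.6, pandas 2.3.3, scipy 1.17.1 and R 4.3.3 were used.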

Additional observations from a re-analysis of the deposited data

Results flagged for a closer look

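For 2 genes the difference at day 3 and that at day 6 ran in opposite directions, each past 2-fold; the difference between the stages was not tested. Ebf1 had 21.1 CPM in cKO and 6.91 CPM in parental cells at day 3 (log2 ratio 1.61), against 9.39 and 20.9 CPM at day 6 (−1.15). Its parental level at day 3 rests for 60.8% on 10 cells. Lgals3 had 13.9 CPM in cKO and 28.2 CPM in parental cells at day 3 (−1.02), against 117 and 46.97 CPM at day 6 (1.32). At day 3, 10 parental cells held 83.8% of its UMIs.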

How the results depend on the processing

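No paired analysis was possible because each group holds 1 library. Counts are given in the order 2-fold higher, 2-fold lower, 1.5-fold higher and 1.5-fold lower in cKO, which were 12, 14, 64 and 82. With cells of both libraries within the chromosome limit they were 6, 6, 34 and 45. With only the parental cells that had chromosomes 1, 6 and 8 high they were 61, 45, 189 and 402, and with only those that had chromosome 11 high 34 genes were 2-fold and 325 were 1.5-fold lower. Outside chromosomes 1, 6, 8, 11 and Y, 8 genes were 2-fold and 27 were 1.5-fold lower. At 5 CPM the counts were 23, 53, 128 and 294, at 50 CPM 4, 4, 28 and 30, and with no filter on low values 1355, 2148, 2086 and 3643. The 1.5-fold lower genes numbered 48 with TMM factors, 42 with median-of-ratios factors and 152 with equal weight per cell. Of the genes past 1.5-fold, 43.8% were higher in cKO, against 64.96% with TMM, 68.4% with median-of-ratios factors and 31.5% with equal weight per cell; at 2-fold these were 46.2%, 58.6%, 62.1% and 37.9%. Median-of-ratios factors raised every log2 ratio by 0.10 and TMM by 0.09. The cause was not tested.

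Of 78 named genes past 1.5-fold, 78 kept that limit and direction without the limit on mitochondrial UMIs or with doublets kept, 72 with equal weight per cell, 68 with TMM, 45 against parental cells with chromosome 11 high and 40 within the chromosome limit. Against parental cells with chromosome 11 high the sign turned, among named genes past 1.5-fold, for Meg3 (−0.19), Sgk1 (0.15), Mylpf (0.74), Mt2 (0.16), Mt1 (0.20), Zfp42 (0.25), Akr1b3 (0.12), Hoxb2 (1.10), Hoxa5 (3.55), Klf4 (0.35), Nr0b1 (0.66), Gadd45a (0.097) and Pfkp (0.12), and, among lists with a median past 1.5-fold, for the Hox (1.10) and metallothionein lists (0.16). Against those with chromosomes 1, 6 and 8 high it turned for Cyct (1.29), Lgals3 (1.12), Lefty2 (0.30), Lefty1 (0.073), Tubb3 (0.047) and Krt19 (0.34). Within the chromosome limit it turned for Mylpf (0.031), Hoxb2 (0.36), Hoxa5 (0.21), Nr0b1 (0.50), Grhl2 (−0.27), Cyr61 (−0.11) and the Hox median (0.20), and with the stricter cell filter for Tubb3 (0.024). The median of the class II POU factors was 0.98 over Pou2f1 and Pou2f3, and −0.61 with members of at least 1 CPM and −1.17 with those of at least 20 CPM, where members join or leave. At 5000 UMIs per cell the difference in share turned to 0.31 points for Sp8 and −0.25 points for Trp53inp1. The comparisons by parental range were chosen after seeing the data. With 1 library a group, variation between cultures was not measured.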
